A study of Mus musculus with 11 samples.

Results

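The RUNX transcription factor genes Runx1, Runx2 and Runx3 and the gene of their shared partner, Cbfb, were followed through 3 blood cell populations of mouse bone marrow. They were taken by symbol from the deposited gene count table and make up 4 of its 54347 genes. The libraries were made from long-term blood stem cells (LT-HSCs) with the endothelial sialomucin endomucin on their surface (EMCN+), from LT-HSCs without it (EMCN-), and from granulocyte-monocyte progenitors (GMPs), which are further along in differentiation. All cells came from the marrow of female C57BL/6NTac mice, for which the labels give no treatment, allele or age, and were sorted after removal of lineage-positive cells. The stem cell gate was EMCN+CD150+CD48-LSK or EMCN-CD150+CD48-LSK, where LSK stands for lineage-negative, Sca-1-positive and c-Kit-positive cells. There were 4 EMCN+, 3 EMCN- and 4 GMP libraries from 4 numbered mice, and each library of a population came from a separate animal. Mouse 3 has no EMCN- library, because the submitters set 1 aside for poor quality. Few cells went into an LT-HSC library, and each library holds the average of a sorted gate. In such bulk samples fewer cells that express a gene and less RNA per cell cannot be told apart.

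RUNX proteins bind DNA through the Runt domain, which they share, and recognise the sequence ACCACA or ACCGCA and its relatives. CBFβ, the product of Cbfb, binds no DNA itself and raises the affinity and stability of each RUNX protein, so all of them draw on the same partner. RUNX1 is needed for the emergence of definitive blood stem cells and for platelet formation, RUNX2 is the master regulator of bone formation, and RUNX3 is known for its roles in cytotoxic T cells, natural killer cells and sensory neurons. The bound complex can activate or repress, depending on the coactivators, corepressors and other factors beside it.

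The Runx genes share a sequence at their 5′ ends, shown here because it holds the RUNX recognition sequence itself, in tandem. The windows are from RefSeq on GRCm38.p6 and reach from 250 bases before to 50 bases after each listed start, with 2 windows for Runx1, 1 for Runx2, 2 for Runx3 and 1 for Cbfb. In the windows of the upstream (distal) starts, an identical run of 18 bases, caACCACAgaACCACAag, was found in all 3 Runx genes. Each stretch of 30 bases below is 5′ to 3′ on the gene's strand, and capitals mark the ACCACA matches.
Runx1 distal: tcataaacaACCACAgaACCACAagttggg
Runx2 distal: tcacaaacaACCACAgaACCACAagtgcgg
Runx3 distal: ggtccctcaACCACAgaACCACAaggccag
The Runx1 stretch lies at chr16:92826026-92826055 on the minus strand, with the run from base 27 to base 44 after the start. The Runx2 stretch lies at chr17:44814584-44814613 on the minus strand, with the run from base 22 to base 39 after the start. The Runx3 stretch lies at chr4:135120502-135120531 on the plus strand, with the run from -136 to -119 before the listed start.

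Of 32851 RefSeq windows of this length, searched on both strands, 4 (0.0122%) hold the 18-base run. They belong to the 3 Runx genes and to Gm16225, a predicted gene beside Runx3. The looser pattern inside it, an ACCACA pair on 1 strand with 2 bases of any kind between, was found in 7 windows (0.0213%), those 4 included. A single ACCACA was found in 16.8% of windows and 2 or more in 1.81%, while ACCGCA was found in 6.45%. The Runx1 distal window holds 2 ACCACA matches, the Runx2 window 3 and the Runx3 distal window 2. The proximal windows of Runx1 and Runx3, which lie 128745 and 31900 bases downstream of the distal starts, and the Cbfb window hold 0 matches of either motif. These are matches of letters, and binding was not measured.

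Library totals ranged from 3.63 to 11.1 M (1e6) estimated counts. Values are counts per 1e6 counts with TMM factors (CPM), and a single count was worth 0.0697 to 0.235 CPM. Levels are compared between genes only as CPM per kb of the median protein-coding transcript. A gene was called at a Benjamini-Hochberg adjusted p under 0.05 by edgeR's quasi-likelihood test over 14915 genes, and all 4 genes passed the filter on low counts. The labelled populations carried their markers: the summed level of 9 LT-HSC markers was 1490 to 1787 CPM in EMCN+, 1187 to 1411 CPM in EMCN- and 160 to 222 CPM in GMP libraries. The summed level of 7 GMP markers was 21.6 to 27.8, 20.5 to 30.8 and 15251 to 18579 CPM in the same order.

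Runx1 was the most abundant of the 4 genes per kb of the median protein-coding transcript in every population, but stood behind Cbfb with the other transcript lengths tried. Its only called difference, between EMCN+ LT-HSCs and GMPs, was 1.29-fold. It lies on chromosome 16 from 92601466 to 92826149 on the minus strand of GRCm38 (ENSMUSG00000022952.17). In the EMCN+ libraries of mice 1, 2, 3 and 4 its level was 130.7, 145.7, 132.8 and 152.6 CPM. In the EMCN- libraries of mice 1, 2 and 4 it was 120.9, 134.7 and 131.1 CPM. GMPs of mice 1 to 4 had 106.6, 100.5, 132.3 and 94.99 CPM. The stem cell fractions overlapped, and GMPs of mouse 3 stood inside the range of both, above the other GMP libraries. The mean was 140 ± 10.5 CPM (SD, n = 4) in EMCN+ LT-HSCs, 129 ± 7.16 CPM (n = 3) in EMCN- LT-HSCs and 109 ± 16.5 CPM (n = 4) in GMPs.

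The log2 fold change of Runx1 between EMCN+ and EMCN- LT-HSCs was 0.12 ± 0.12 (SE), with a 95% interval from -0.12 to 0.37 and an edgeR adjusted p of 0.708. It was higher in the EMCN+ library in 3 of 3 within-mouse pairs, by 0.11 to 0.22. Against GMPs, Runx1 was higher in EMCN+ LT-HSCs by 0.37 ± 0.11 (0.15 to 0.60, edgeR adjusted p = 0.00505), in 4 of 4 mice. The difference within mouse 3 was 0.005, and the largest within a mouse was 0.68. EMCN- LT-HSCs differed from GMPs by 0.25 ± 0.12 (edgeR adjusted p = 0.0802), a value that missed the threshold, in 3 of 3 mice. Blocked by mouse, the difference was 0.29 (edgeR adjusted p = 0.0409) in all libraries and 0.37 (edgeR adjusted p = 0.0084) in mice with both populations, and without the GMP library of mouse 3 it was 0.35 (edgeR adjusted p = 0.0123).

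Runx2, best known as the bone factor, was expressed in both stem cell fractions at about the same level and was lower in GMPs. It lies on chromosome 17 from 44495987 to 44814797 on the minus strand (ENSMUSG00000039153.17). The EMCN+ libraries of mice 1 to 4 had 50.2, 67.2, 61.4 and 72.3 CPM. The EMCN- libraries of mice 1, 2 and 4 had 57.1, 56.0 and 67.0 CPM. In GMPs of mice 1 to 4 the level was 33.8, 22.8, 28.5 and 33.8 CPM. Every LT-HSC library was above every GMP library, and the stem cell fractions overlapped throughout. Means were 62.8 ± 9.49, 60.0 ± 6.03 and 29.7 ± 5.21 CPM.

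Between EMCN+ and EMCN- LT-HSCs the log2 fold change of Runx2 was 0.07 ± 0.15, with an interval from -0.24 to 0.37 (edgeR adjusted p = 0.904), and it was higher in EMCN+ cells in 2 of 3 pairs. Runx2 was higher in EMCN+ LT-HSCs than in GMPs by 1.08 ± 0.14 (0.78 to 1.37, edgeR adjusted p = 1.04e-06), in 4 of 4 mice. In EMCN- LT-HSCs it was higher than in GMPs by 1.01 ± 0.15 (0.70 to 1.33, edgeR adjusted p = 8.89e-06), in 3 of 3 mice. Both of these comparisons use the same 4 GMP libraries. Of 12 skeletal target genes of RUNX2, 3 passed the filter, namely Spp1, Col1a1 and Col1a2, and Sp7, Bglap, Ibsp and Alpl, genes of osteoblasts, were among those that did not. Col1a2, a type I collagen gene, had 15.5 ± 8.10 CPM (6.25 to 23.9) in EMCN+, 11.2 ± 5.21 CPM in EMCN- and 2.96 ± 2.49 CPM in GMP libraries. Like Runx2 it was higher in both fractions than in GMPs (log2 fold changes 2.37 and 1.89, edgeR adjusted p = 0.0053 and 0.0292), although the call in EMCN- LT-HSCs was lost without the EMCN- library of mouse 2 (edgeR adjusted p = 0.125) or mouse 4 (0.0533), or the GMP library of mouse 1 (0.0809), mouse 3 (0.0722) or mouse 4 (0.0749). Col1a1, the other type I collagen gene, was lower in EMCN+ LT-HSCs than in GMPs (0.575 ± 0.412 against 3.4 ± 1.63 CPM, log2 fold change -2.59, edgeR adjusted p = 0.00254). The summed level of 7 osteoblast and stroma markers was 2.00 to 4.04 CPM in EMCN+, 1.78 to 2.91 CPM in EMCN- and 5.46 to 9.79 CPM in GMP libraries. These markers include Col1a1 but not Col1a2, and Col1a1 and Cxcl12 (2.56 ± 0.924 CPM) made up most of the GMP sum. The part of such cells in the Runx2 difference was not tested.

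Runx3 was the gene that separated the stem cell fractions. It lies on chromosome 4 from 135120652 to 135177990 on the plus strand (ENSMUSG00000070691.10). The EMCN+ libraries of mice 1 to 4 had 13.8, 13.2, 13.1 and 12.9 CPM, from 139, 189, 118 and 66 counts. The EMCN- libraries of mice 1, 2 and 4 had 40.2, 34.6 and 35.9 CPM, from 263, 214 and 153 counts. GMPs of mice 1 to 4 had 46.7, 44.9, 47.8 and 38.6 CPM, from 296, 275, 210 and 207 counts. All EMCN+ libraries were below all others, and EMCN- LT-HSCs overlapped with GMPs through mouse 4's GMPs. The spread among EMCN+ libraries, an SD of 0.384 CPM, was smaller than the 1.25 CPM that counting alone gives, so these values lie closer together than their precision.

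The difference of -1.48 ± 0.13 on the log2 scale between EMCN+ and EMCN- LT-HSCs (interval -1.75 to -1.20, edgeR adjusted p = 6.48e-06) had the smallest p of all 14915 genes. Runx3 was lower in the EMCN+ library in 3 of 3 mice, by 1.39 to 1.54. Of the 4 genes it alone was called in this comparison, in which 1.96% of all genes tested were called (0.771% higher and 1.19% lower in EMCN+ LT-HSCs), and it alone had groups that did not overlap, against 14.2% of all genes. Against GMPs, Runx3 was lower in EMCN+ LT-HSCs by a log2 fold change of -1.74 ± 0.12 (-2.0 to -1.48, edgeR adjusted p = 1.33e-10), in 4 of 4 mice. EMCN- LT-HSCs differed from the same GMPs by -0.27 ± 0.13 (-0.54 to 0.002, edgeR adjusted p = 0.0895), lower in 3 of 3 mice by 0.10 to 0.38, but 0.46 higher with total-count scaling. Without the GMP library of mouse 4 this difference was -0.33 (edgeR adjusted p = 0.0463).

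Some LT-HSC markers differed between the stem cell fractions in the opposite direction to Runx3. Of the 9 LT-HSC markers, 4 were called higher and 0 lower in EMCN+ than in EMCN- LT-HSCs (median log2 fold change 0.60), and their sums, given above, did not overlap. Of the 7 GMP markers 0 were called between the fractions, with a median of -0.79. Their sums overlapped, but Prtn3 made up most of them, with 22.2 ± 2.52 CPM in the EMCN+ and 19.7 ± 4.18 CPM in the EMCN- fraction. Mpo, Elane, Ctsg, Ms4a3 and Fcgr3 had lower means in EMCN+ libraries, as Runx3 did, while Prtn3 and Cebpe had higher means. Over the EMCN+ and the EMCN- libraries Elane had 9 and 7 counts and Ctsg 0 and 2. Ms4a3 had 5 and 4 and Cebpe 6 and 2, so these genes were near the limit of detection in both fractions. Mpo, the myeloperoxidase gene, had 0.980 ± 0.852 against 3.84 ± 1.81 CPM (log2 fold change -2.12, edgeR adjusted p = 0.133), and was called with DESeq2 (adjusted p = 0.0399) and without robust estimation (edgeR adjusted p = 0.0402). T and NK cells are known to carry RUNX3. Of 10 markers of those cells, Cd3e, Ncr1 and Klrd1 had 0 counts in every library, and the summed level was 8.09 to 11.9 CPM in EMCN+, 3.76 to 5.65 CPM in EMCN- and 0.933 to 2.52 CPM in GMP libraries. Klrb1c and Cd247 made up most of that sum in LT-HSCs. Cd3d ran in the order of Runx3, at 0.443 ± 0.308, 0.571 ± 0.391 and 0.862 ± 0.325 CPM, and Cd8a had 0.136 ± 0.0428, 0.340 ± 0.316 and 0.239 ± 0.194 CPM, each within overlapping ranges. Summed megakaryocyte markers (5 genes, among them Pf4 and Itga2b) went from 25.1 to 40.9 CPM in EMCN+ to 68.1 to 106 CPM in EMCN- libraries, but were 11.4 to 23.7 CPM in GMPs, where Runx3 was highest. Summed mast cell and basophil markers were 0.195 to 1.19 CPM in EMCN+, 1.13 to 2.60 CPM in EMCN- and 87.8 to 199 CPM in GMP libraries. The part of these signals in the Runx3 difference was not tested.

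Cbfb, the shared partner, passed the test in no comparison with TMM factors, but was higher in LT-HSCs than in GMPs with total-count scaling. It lies on chromosome 8 from 105170674 to 105217989 on the plus strand (ENSMUSG00000031885.14). In EMCN+ LT-HSCs of mice 1 to 4 its level was 76.0, 72.3, 72.8 and 77.0 CPM. In EMCN- LT-HSCs of mice 1, 2 and 4 it was 84.3, 74.6 and 77.3 CPM. GMPs had 92.3, 75.2, 71.0 and 73.3 CPM. The ranges overlapped in every comparison, with mouse 1 the highest in EMCN- LT-HSCs and in GMPs. The log2 fold change was -0.08 ± 0.11 (-0.31 to 0.15, edgeR adjusted p = 0.825) for EMCN+ against EMCN-, -0.07 ± 0.10 (-0.28 to 0.15, edgeR adjusted p = 0.592) for EMCN+ against GMP and 0.01 ± 0.11 (-0.22 to 0.25, edgeR adjusted p = 0.937) for EMCN- against GMP.

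**Figure D1:**
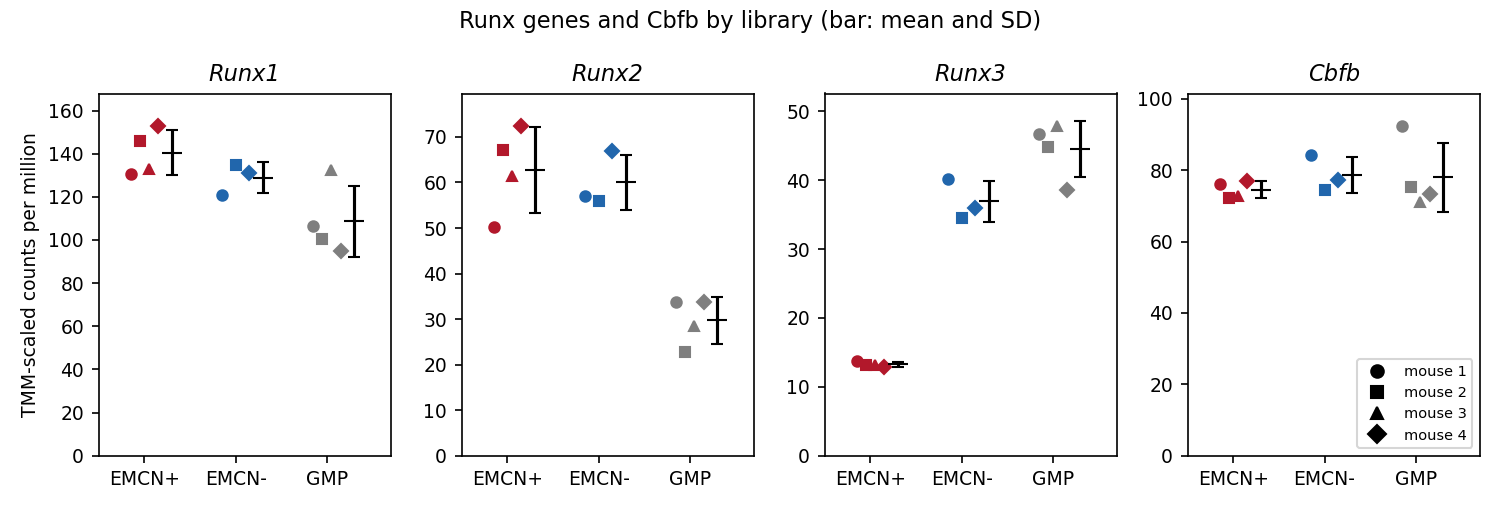
Level of each gene in TMM-scaled CPM (y axis, from 0) in each library, with the populations on the x axis, 1 symbol per mouse, and the mean and SD beside the points. The 4 EMCN+ values of Runx3 (12.9 to 13.8) sit below all EMCN- and GMP values, the GMP values of Runx2 (22.8 to 33.8) sit below all LT-HSC values, and Cbfb overlaps throughout.

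Against GMPs, 3 of the 4 genes were called in EMCN+ LT-HSCs, where 61.3% of all genes tested were called (31.9% higher and 29.4% lower), and 1 of 4 in EMCN- LT-HSCs, where 52.7% were (28.3% higher and 24.4% lower). Being called against GMPs is therefore common among all genes. Libraries did not overlap with GMPs for Runx2 and Runx3 in EMCN+ LT-HSCs (57.3% of all genes) and for Runx2 in EMCN- LT-HSCs (54.4%). The directions were mixed, with Runx1 and Runx2 higher and Runx3 lower in EMCN+ LT-HSCs than in GMPs.

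**Figure D2:**
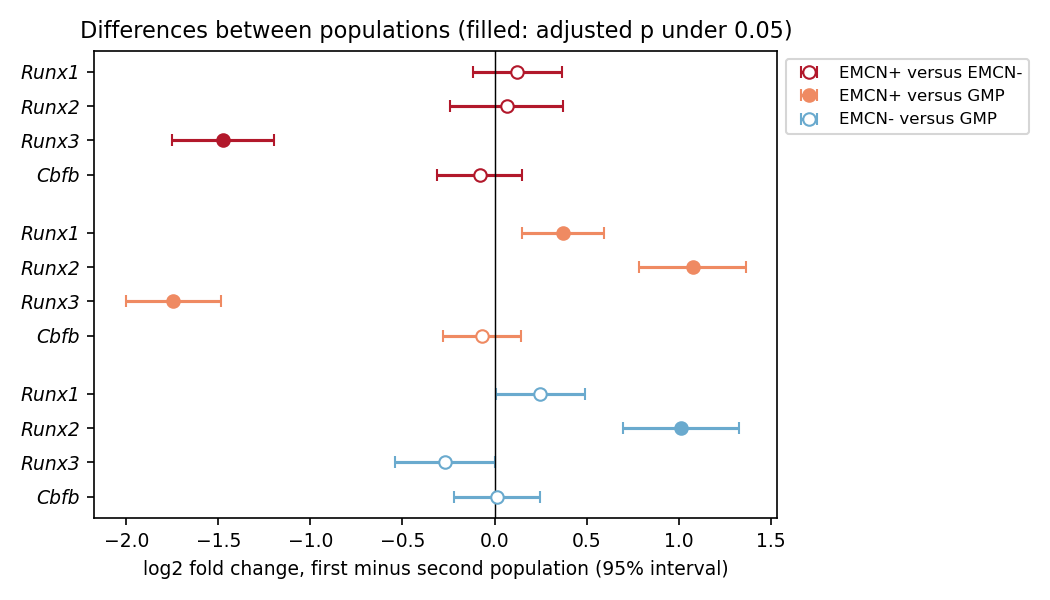
Log2 fold change of each gene (x axis, first minus second population, with its 95% interval) in the 3 comparisons, which share libraries; filled points have an edgeR adjusted p under 0.05. Runx3 is at -1.48 and -1.74 in the comparisons with EMCN+ LT-HSCs and at -0.27 between EMCN- LT-HSCs and GMPs, and Runx2 is at 1.08 and 1.01 against GMPs.

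The comparisons with GMPs depend on how libraries are scaled. TMM factors were low in GMP libraries, and scaling by total counts alone raised the median of all genes by 0.83 (EMCN+ against GMP), 0.72 (EMCN- against GMP) and 0.11 (EMCN+ against EMCN-) on the log2 scale. The calls were 115 higher and 178 lower (39.2% higher) between the LT-HSC fractions, against 161 and 50 (76.3% higher) with total counts. They were 4760 higher and 4386 lower (52.0% higher) for EMCN+ against GMP, and 8973 and 1877 (82.7% higher) with total counts. For EMCN- against GMP they were 4222 and 3637 (53.7% higher), and 8209 and 1473 (84.8% higher) with total counts. Under total counts Cbfb was higher in LT-HSCs than in GMPs, by 0.76 (edgeR adjusted p = 9.17e-06) and 0.73 (edgeR adjusted p = 4.66e-05), and Runx3 in EMCN- LT-HSCs turned to 0.46 above GMPs (edgeR adjusted p = 0.00933). Relative to the median of all genes under that scaling, Cbfb was at -0.10 and -0.02 and Runx3 at -0.29. Runx3 stayed lower in EMCN+ LT-HSCs than in GMPs, at -0.91, and than in EMCN- LT-HSCs, at -1.37.

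Per kb of transcript the order of the genes was the same in both stem cell fractions. In EMCN+ LT-HSCs it was Runx1 (70.8 ± 5.30 CPM per kb), Runx2 (35.1 ± 5.30), Cbfb (26.7 ± 0.830) and Runx3 (4.62 ± 0.134). In EMCN- LT-HSCs it was Runx1 (64.9 ± 3.61 CPM per kb), Runx2 (33.5 ± 3.37), Cbfb (28.2 ± 1.79) and Runx3 (12.9 ± 1.03). In GMPs Cbfb (27.9 ± 3.47 CPM per kb) stood after Runx1 (54.7 ± 8.30), followed by Runx2 (16.6 ± 2.91) and Runx3 (15.5 ± 1.43), and the last pair lay within each other's spread. The deposited table does not say which transcripts were counted, and the length used sets this order. With the longest protein-coding transcripts Cbfb came first in all 3 populations (25.8, 27.2 and 27.0 CPM per kb, against 24.0, 22.0 and 18.5 for Runx1), as it did with the union of all exons (21.4, 22.6 and 22.4 against 11.7, 10.7 and 9.03). With both lengths the mean of Runx3 also stood above that of Runx2 in EMCN- LT-HSCs and in GMPs. In EMCN- LT-HSCs the pair lay within each other's spread. Runx3 had 9.50 ± 0.763 against 9.29 ± 0.934 CPM per kb with the longest transcripts, and 7.38 ± 0.592 against 6.79 ± 0.683 with the union of exons.

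The summed Runx level was made up differently in the 3 populations, and the share of Runx3 differed most between the stem cell fractions. Its share of the summed CPM per kb was 3.69 to 4.87% in EMCN+ libraries, 10.8 to 13.1% in EMCN- libraries and 16.8 to 19.8% in GMPs, with no overlap between any pair. The mean share was 4.22 ± 0.510% (SD, n = 4), 11.6 ± 1.34% (n = 3) and 17.9 ± 1.43% (n = 4). Runx1 held 64.2 ± 1.70%, 58.3 ± 2.33% and 62.9 ± 3.46%, and Runx2 held 31.6 ± 2.16%, 30.1 ± 2.06% and 19.2 ± 3.75%. For the Runx3 share the two-sided exact permutation p over libraries was 0.0571 between the fractions, the smallest that 4 against 3 libraries allow, 0.0286 between EMCN+ LT-HSCs and GMPs, the smallest that 4 against 4 allow, and 0.0571 between EMCN- LT-HSCs and GMPs. Adjusted over the 3 pairs, each was 0.0571, so this design could not reach 0.05 for this measure. The shares depend on length: with the union of all exons the Runx3 share was 12.5, 29.7 and 41.8%, in the same order of populations.

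**Figure D3:**
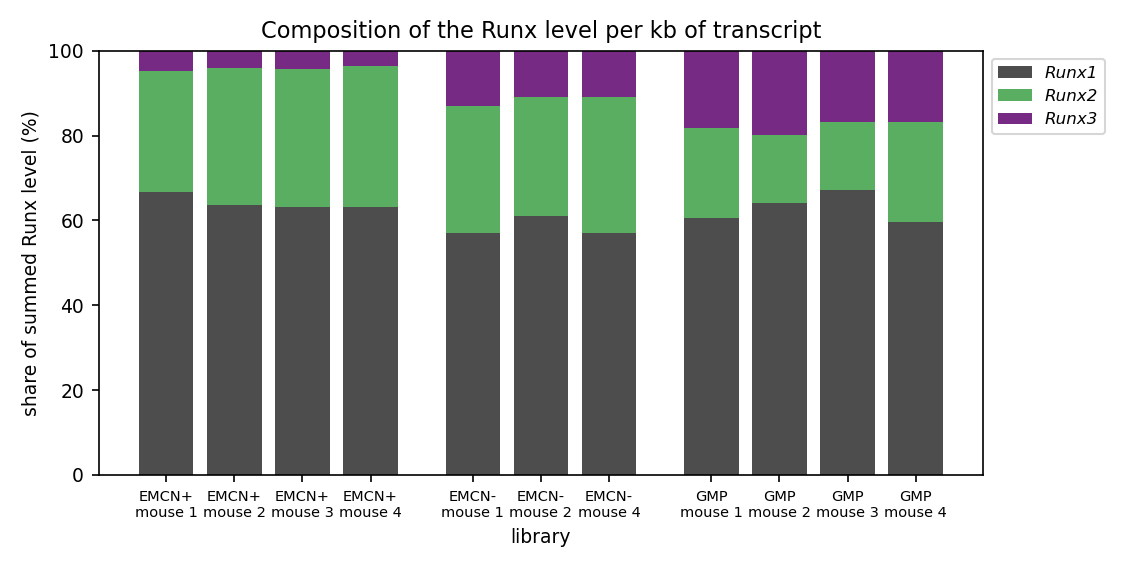
Share of Runx1, Runx2 and Runx3 in their summed level per kb of the median protein-coding transcript (y axis, percent) in each of the 11 libraries (x axis). The Runx3 segment is 3.69 to 4.87% in EMCN+, 10.8 to 13.1% in EMCN- and 16.8 to 19.8% in GMP libraries, and the Runx2 segment is smallest in GMPs.

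The ratio of Runx3 to Runx1 within a library needs no scaling between libraries, and a change of length shifts all libraries alike. Its log2 was -3.77, -4.00, -3.87 and -4.10 in EMCN+ libraries of mice 1 to 4. It was -2.12, -2.49 and -2.40 in EMCN- libraries of mice 1, 2 and 4, and -1.72, -1.70, -2.0 and -1.83 in GMPs of mice 1 to 4. The 3 populations did not overlap, with the ratio lowest in EMCN+ and highest in GMP libraries. It was 3.03-fold lower in EMCN+ than in EMCN- LT-HSCs (log2 difference -1.60), 4.35-fold lower than in GMPs (-2.12), and 1.44-fold lower in EMCN- LT-HSCs than in GMPs (-0.53). Two-sided exact permutation p was 0.0571, 0.0286 and 0.0571, again the smallest these library numbers allow, and 0.0571 each after adjustment over the 3 pairs.

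The summed Runx level over Cbfb, a measure of how much factor transcript stands against that of the shared partner, overlapped in the stem cell fractions. The mean log2 ratio was 2.05 ± 0.14 in EMCN+ LT-HSCs, 1.98 ± 0.14 in EMCN- LT-HSCs and 1.64 ± 0.23 in GMPs, so the summed Runx level per kb was 4.13, 3.96 and 3.12 times that of Cbfb. GMPs of mouse 3, at 1.97, lay within the range of the stem cells and above the other GMP libraries (1.43 to 1.61). The difference was 0.06 between the fractions (two-sided exact permutation p = 0.571), 0.41 between EMCN+ LT-HSCs and GMPs (exact permutation p = 0.0571) and 0.34 between EMCN- LT-HSCs and GMPs (exact permutation p = 0.114). Adjusted over the 3 pairs these were 0.571, 0.171 and 0.171. These multiples depend on length. They were 1.44, 1.5 and 1.28 with the longest transcripts and 0.998, 1.1 and 0.952 with the union of exons, where the difference between EMCN+ LT-HSCs and GMPs was 0.16 and 0.07 and that between the fractions turned to -0.06 and -0.14.

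**Figure D4:**
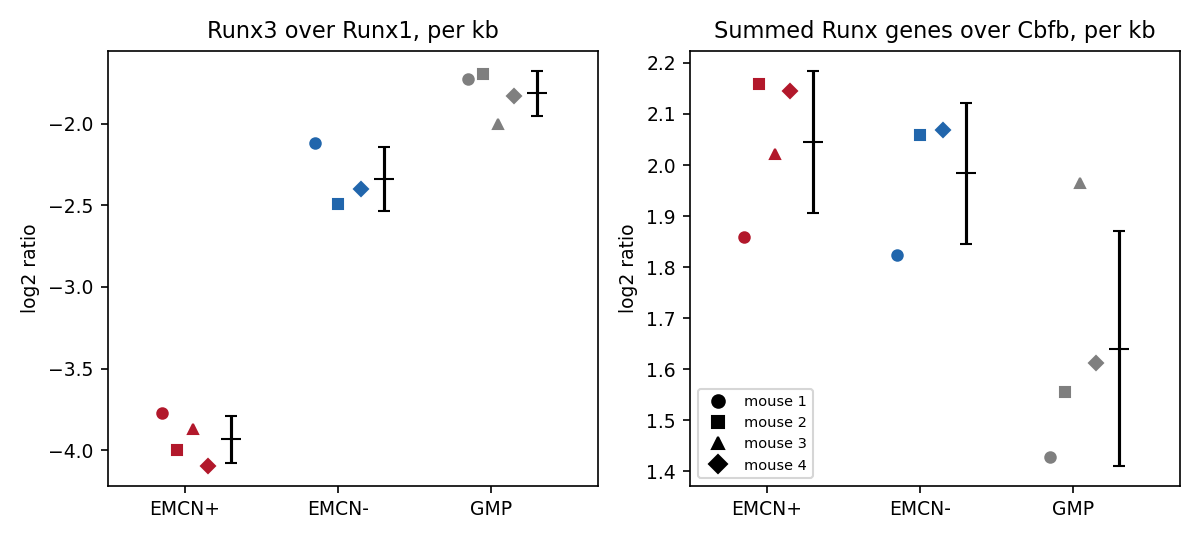
Log2 ratio of Runx3 to Runx1 (left) and of the summed Runx genes to Cbfb (right), both per kb, in each library (y axis; it does not start at 0), by population, with 1 symbol per mouse and the mean and SD beside the points. The Runx3 to Runx1 ratio separates the 3 populations (-4.10 to -3.77, -2.49 to -2.12 and -2.0 to -1.70), while the ratio to Cbfb overlaps.

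The proteins that RUNX factors work with were described by lists of genes. Between the stem cell fractions no corepressor, coactivator or ubiquitin ligase of RUNX proteins was called. Of all genes tested 1.96% were called there, and 0 calls in lists of 9 to 21 genes lie near that share. Of 21 corepressor genes tested 0 were called and the median log2 fold change was 0.08, beside 0 over all genes tested. Among them was Runx1t1, the ETO gene known as a fusion partner of RUNX1 in leukaemia, at 13.2 ± 1.82 against 6.30 ± 2.76 CPM (edgeR adjusted p = 0.141). Of 14 coactivators 0 were called (median 0.16), with the histone methyltransferase gene Kmt2a at 312 ± 54.7 against 226 ± 24.0 CPM (edgeR adjusted p = 0.0611). Of 9 ubiquitin ligase genes 0 were called (median 0.04). Of 10 kinase, phosphatase and isomerase genes Cdk6 alone was called, lower in EMCN+ LT-HSCs (log2 fold change -0.89, edgeR adjusted p = 0.00217). CDK6 is a cell cycle kinase known to interfere with RUNX1, and its level was 108 ± 17.9, 200 ± 43.6 and 512 ± 20.6 CPM in EMCN+, EMCN- and GMP libraries, the same order of populations as Runx3.

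Against GMPs, most corepressors and coactivators called were higher in stem cells, while the kinase and ubiquitin ligase lists were mixed. Of all genes tested, 61.3% were called in EMCN+ (31.9% higher, 29.4% lower) and 52.7% in EMCN- LT-HSCs (28.3% higher, 24.4% lower). Beside these stand 81.0 and 57.1% of corepressors and 92.9 and 78.6% of coactivators. The kinase list had 70 and 80%, and the ubiquitin ligase list 66.7% in both. Of the 21 corepressors 14 were higher and 3 lower in EMCN+ LT-HSCs (median 0.50, beside 0.04 over all genes), and 10 were higher and 2 lower in EMCN- LT-HSCs (median 0.42, beside 0.03). Cbfa2t3, an ETO family corepressor, had 210 ± 23.4 CPM in EMCN+ LT-HSCs, 182 ± 16.3 CPM in EMCN- LT-HSCs and 40.4 ± 3.12 CPM in GMPs. Its log2 fold changes against GMPs were 2.38 ± 0.11 and 2.17 ± 0.11 (edgeR adjusted p = 1.71e-13 and 2.77e-12). Runx1t1 was at 0.114 ± 0.228 CPM in GMPs, near the worth of a single count. Of the 14 coactivators 11 were higher and 2 lower in EMCN+ LT-HSCs (median 0.94), and 10 were higher and 1 lower in EMCN- LT-HSCs (median 0.66). Kmt2a, at 85.6 ± 5.43 CPM in GMPs, and the acetyltransferase genes Kat6b, Crebbp and Kat6a were among those higher. Of the 10 kinase, phosphatase and isomerase genes 2 were higher (Src and Pim1) and 5 lower in EMCN+ LT-HSCs. In EMCN- LT-HSCs 2 were higher and 6 lower (medians -0.39 and -0.45). Cdk6 and Cdk4 were lower in both, although Cdk4 in EMCN- LT-HSCs turned to 0.16 with total counts. The Cdk4 call in EMCN+ LT-HSCs was lost in 1 of 22 other settings, over which its values reached -0.03. Of the 9 ubiquitin ligases 3 were higher and 3 lower in each fraction, with Nedd4 and Smurf1 higher and Skp2 and Cdc20 lower. For EMCN- LT-HSCs the calls of Skp2 and Cdc20 were each lost in 1 of 22 other settings. Src, in GMPs at 0.387 ± 0.401 CPM, was near the limit of detection there. These counts rest on TMM scaling.

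Of 18 DNA-binding partner genes of RUNX factors tested, of 20 listed, Gata1 alone was called between the fractions, where 1.96% of all genes were. Its level was 1.54 ± 1.08 CPM in EMCN+ against 6.51 ± 3.78 CPM in EMCN- libraries (log2 fold change -2.11 ± 0.51, edgeR adjusted p = 0.0374). GATA1 is the erythroid and megakaryocyte factor that works with RUNX1 in platelet development. Without the EMCN- library of mouse 1 the Gata1 difference was -1.52 (edgeR adjusted p = 0.363), and it also missed the threshold without the EMCN+ library of mouse 2 (edgeR adjusted p = 0.145), of mouse 3 (0.0819) or of mouse 4 (0.0595). Against GMPs 12 partner genes were higher and 4 lower in EMCN+ LT-HSCs, and 11 were higher and 3 lower in EMCN- LT-HSCs. That is 88.9 and 77.8% called, beside 61.3 and 52.7% of all genes. Erg, a stem cell ETS factor, had 150 ± 12.1, 120 ± 11.1 and 28.9 ± 1.96 CPM in EMCN+, EMCN- and GMP libraries. Tal1, the haematopoietic helix-loop-helix factor, had 115 ± 12.9, 105 ± 5.98 and 20.8 ± 3.08 CPM. Cebpa, the factor of granulocyte commitment, went the other way, at 3.28 ± 0.547, 3.15 ± 0.948 and 92.2 ± 9.34 CPM.

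Genes known as RUNX targets split by lineage. Of 10 myeloid target genes tested, of 12 listed, 0 were called between the stem cell fractions (median 0.09), and 10 of 10 were lower in each fraction than in GMPs (medians -4.23 and -5.00). Genes such as Csf1r could pass the filter only through GMPs, so that count is a description. Of all genes tested, 29.4 and 24.4% were lower in the EMCN+ and EMCN- fractions than in GMPs. Between the fractions 1.96% were called. Spi1, which encodes PU.1 and is a classic RUNX1 target, had 34.8 ± 5.31, 34.3 ± 5.27 and 101 ± 12.1 CPM. Csf1r, the macrophage growth factor receptor, had 0.620 ± 0.503, 0.716 ± 0.648 and 50.3 ± 1.98 CPM. Of 11 megakaryocyte and platelet targets tested, of 14 listed, 3 were called between the fractions, all lower in EMCN+ LT-HSCs: Pf4, Itga2b and Plek (log2 fold changes -2.38, -1.53 and -1.32, edgeR adjusted p = 0.00237, 0.0101 and 0.0116). The list's median was -0.02, and 2 of these genes, Pf4 and Itga2b, are also among the megakaryocyte markers above. Without the EMCN- library of mouse 1, Itga2b was at -1.32 (edgeR adjusted p = 0.0524) and Plek at -1.03 (edgeR adjusted p = 0.0959). Without the EMCN+ library of mouse 2, Itga2b was at -1.49 (edgeR adjusted p = 0.0539). Blocked by mouse in the 3 mice with both fractions, Plek was at -1.16 (edgeR adjusted p = 0.136). Against GMPs 8 megakaryocyte targets were higher and 0 lower in EMCN+ LT-HSCs, and 10 were higher and 0 lower in EMCN- LT-HSCs. That is 72.7 and 90.9% called, beside 61.3 and 52.7% of all genes.

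Lymphoid target genes, the group most tied to RUNX3, were largely below detection. Of 18 listed 6 were tested, and Cd8a, Eomes, Ifng, Prf1 and Tbx21 were among the 12 that were not. Nkg7, a cytotoxic granule gene, alone was called between the fractions, at 1.32 ± 0.637 against 4.64 ± 1.26 CPM (log2 fold change -1.89 ± 0.29, edgeR adjusted p = 0.00163), and had 133 ± 3.94 CPM in GMPs. The median of the 5 genes with counts in either fraction was -0.71, and 1.96% of all genes tested were called between the fractions. Gzmb, the granzyme B gene, had 0 counts in all 7 LT-HSC libraries and 31.7 ± 10.5 CPM in GMPs, through which alone it passed the filter. Against 3 counts over the group it was at least 407-fold lower in EMCN+ and at least 180-fold lower in EMCN- LT-HSCs. Itgal, the LFA-1 integrin gene and a known RUNX3 target, had 3.07 ± 0.743, 4.95 ± 1.91 and 49.1 ± 4.92 CPM. In all, 1 lymphoid target was higher and 3 lower in EMCN+ LT-HSCs than in GMPs (median -1.97), and 2 were higher and 3 lower in EMCN- LT-HSCs (median -1.90). That is 66.7 and 83.3% called, beside 61.3 and 52.7% of all genes. The gene higher in EMCN+ LT-HSCs was Cd4, the T cell coreceptor gene, at 2.69 ± 0.912 against 0.960 ± 0.881 CPM in GMPs (log2 fold change 1.46, edgeR adjusted p = 0.0469), and its call was lost in 12 of 21 other settings (adjusted p 0.00221 to 0.112 over all of them). Those include leaving out the EMCN+ library of mouse 2, 3 or 4, any EMCN- library, or the GMP library of mouse 2 or 3 (edgeR adjusted p = 0.112, 0.106, 0.0508, 0.0512, 0.0646, 0.0555, 0.105 and 0.112 in that order).

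Of 10 cell cycle and survival targets tested, of 11 listed, Cdk6 alone was called between the fractions (median -0.03), where 1.96% of all genes were. Against GMPs 5 were higher and 4 lower in EMCN+ LT-HSCs, and 5 were higher and 2 lower in EMCN- LT-HSCs. That is 90 and 70% called, beside 61.3 and 52.7% of all genes. Ccnd2, a D-type cyclin, had 371 ± 23.3, 311 ± 10.7 and 128 ± 12.6 CPM. Cdkn1b, the p27 inhibitor of cyclin-dependent kinases, had 48.5 ± 3.98, 58.8 ± 0.954 and 30.1 ± 1.19 CPM. The lists come from general knowledge of RUNX biology, and whether RUNX proteins act on these genes in these cells was not measured.

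**Figure D5:**
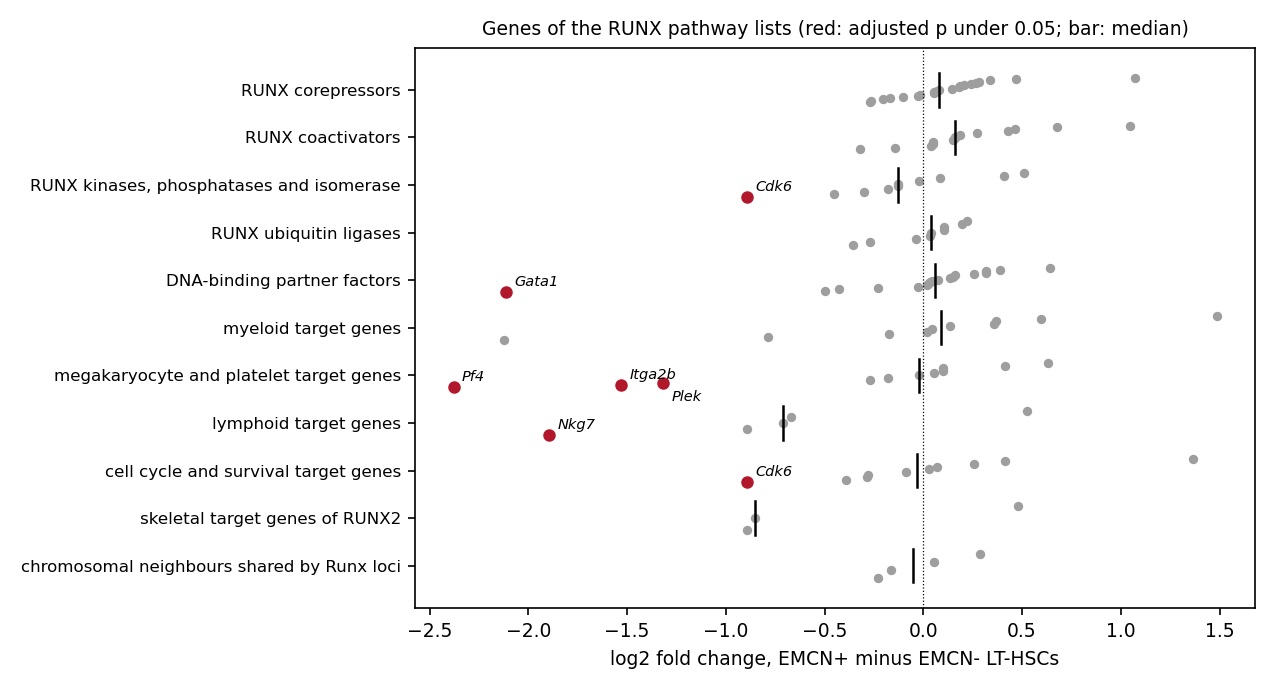
Log2 fold change between EMCN+ and EMCN- LT-HSCs (x axis) of each tested gene of the 11 lists (rows), without the 4 genes described and without Gzmb, which had 0 counts in both; the bar is the list's median. Points in red have an edgeR adjusted p under 0.05 and are named: Gata1, Pf4, Itga2b, Plek, Nkg7 and, in 2 lists, Cdk6, all lower in EMCN+ LT-HSCs.

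Each Runx gene has a Clic and an Rcan gene near it, a neighbourhood that the 3 loci are known to share. Clic4, a chloride intracellular channel gene that ends 36.0 kb from Runx3, had 70.2 ± 9.28, 78.7 ± 10.98 and 35.8 ± 4.04 CPM in EMCN+, EMCN- and GMP libraries. It did not pass the test between the fractions (log2 fold change -0.16 ± 0.13, edgeR adjusted p = 0.648) and was higher in stem cells than in GMPs, by 0.97 ± 0.13 and 1.14 ± 0.13, where Runx3 was lower or not called. Clic5, 216 kb from Runx2, had 14.5 ± 0.717, 17.1 ± 1.69 and 0.906 ± 0.594 CPM, and was higher in stem cells than in GMPs, as Runx2 was, by 3.99 ± 0.32 and 4.22 ± 0.33. Clic6, 60.2 kb from Runx1, did not pass the filter, with 22 counts over the EMCN+, 0 over the EMCN- and 1 over the GMP libraries. Of the Rcan genes, Rcan3 had 28.0 ± 3.16, 23.0 ± 1.40 and 6.71 ± 2.77 CPM. It was not called between the fractions (edgeR adjusted p = 0.594) and was higher in stem cells than in GMPs, by 2.05 ± 0.21 and 1.76 ± 0.23. Rcan2 did not pass the filter. Rcan1 was tested, was called in no comparison and did not have a positive log2 fold change against GMPs. Of these 6 Clic and Rcan genes, 4 were tested, and 3 were called higher and 0 lower than in GMPs in each fraction. That is 75% called, beside 61.3 and 52.7% of all genes. Syf2, a splicing factor gene on the other side of Runx3, had 69.3 ± 10.96, 65.7 ± 2.61 and 43.4 ± 6.44 CPM. It was called higher in stem cells than in GMPs, by 0.68 and 0.60 (edgeR adjusted p = 9.8e-05 and 0.00106). Of the other nearest protein-coding genes, Setd4 beside Runx1 and Cdc5l beside Runx2 were not called in any comparison. Ces4a beside Cbfb had 0 counts. D230025D16Rik, 7.2 kb from Cbfb on the other side, had 11.3 ± 2.06, 10.6 ± 1.52 and 15.8 ± 2.21 CPM. It was called lower in stem cells than in GMPs, by -0.47 and -0.57 (edgeR adjusted p = 0.0393 and 0.0299), where Cbfb was not called.

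Genes that overlap a Runx gene on the opposite strand could share reads with it, since the strand used in counting is not given in the sources used here. Supt3, a transcription initiation factor gene that overlaps Runx2, had 22.0 ± 4.59, 22.6 ± 1.65 and 18.9 ± 2.33 CPM and was not called in any comparison. The antisense genes Runx2os1, Runx2os2 and Runx2os3 in Runx2, Gm26626 in Runx1 and Gm16224 in Runx3 had at most 33 counts over the libraries of a population. Gm16224 had 1 count in all 11 libraries together.

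The genes whose pattern was most like each of the 4 were ranked by Pearson's r of log2 CPM over all 11 libraries, among 10050 genes, as a description over libraries that share populations, mice and scaling. Among the genes most like Runx3 were Lhfpl2 (r = 0.965), Tuba8 (0.936), Adk (0.936) and Spns3 (0.932). Lhfpl2 had 6.17, 13.5 and 17.4 CPM in EMCN+, EMCN- and GMP libraries, and Adk, the adenosine kinase gene, had 18.4, 28.6 and 35.6 CPM. Runx2 was followed by Cdk13 (r = 0.996), a kinase of transcription elongation, Kdm5b (0.986), Klhl24 (0.983), Trp53bp1 (0.982) and Ttc21b (0.979). Runx1 was followed by Map3k14 (0.953), the NF-κB-inducing kinase gene, Klhl3 (0.949), Dop1a (0.937), Whamm (0.933) and Tom1l2 (0.927). Cbfb was followed by Raver1 (0.930), and its next 4 genes lay at 0.814 to 0.836, lower than for any Runx gene. Among the 4 genes themselves r was 0.76 for Runx1 with Runx2, -0.66 for Runx1 with Runx3 and -0.67 for Runx2 with Runx3, while Cbfb had -0.29, -0.04 and 0.33 with Runx1, Runx2 and Runx3.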

How the data were processed

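The deposited table gives estimated counts for each gene. The tools were cutadapt and Salmon, according to the submitters' processing notes; versions, genome build, annotation, counting strand and the step from transcripts to genes are not given in the sources used here. Libraries were built with the SMARTer stranded total RNA-Seq Kit for picogram input, per the labels' protocols, although the molecule is labelled polyA RNA. Estimated counts (all whole; rounded as a safeguard) of all 11 libraries were fitted together in edgeR 4.0.16 (R 4.3.3) with TMM factors, filterByExpr at a minimum count of 10 (14915 genes, 99.7% of counts), robust quasi-likelihood dispersions, no mouse block and Benjamini-Hochberg adjustment at 0.05. Log2 CPM used a prior count of 2. Ratios and shares were tested by exact permutation in scipy 1.17.1. The fit was tested on simulated data.

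Coordinates and lengths are from GENCODE M21 on GRCm38, matched by identifier, and promoter windows from RefSeq on GRCm38.p6. The genes described, the lists and the tests were chosen with earlier results of these data known. Named list genes are up to 4 called genes with the smallest p per list and comparison, or up to 2 where none was called; not every one is named. Cd8a, Eomes, Ifng, Prf1, Tbx21, Sp7, Bglap, Ibsp and Alpl were named as examples of genes that did not pass the filter, and Itgal between the stem cell fractions, after their values were seen. Some genes that these rules name are not reported here.

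Mouse numbers pair libraries because same-numbered libraries come from the same animal, per the labels. Same-mouse libraries had a mean correlation of deviations from the group means of 0.198 (EMCN+ with EMCN-, 3 pairs), 0.133 (EMCN- with GMP, 3 pairs) and 0.0253 (EMCN+ with GMP, 4 pairs). Libraries of different mice had means of -0.0657 (9 pairs), -0.0442 (9 pairs) and -0.00833 (12 pairs) in the same order. Replicates differed beyond sampling (chi-square per degree of freedom 8.41 to 34.9). Reads were counted without molecular identifiers, so bounds against 3 counts cover counting error only. Alternatives were other scalings, other filters, DESeq2 1.42.0, limma-voom (limma 3.58.1), the mouse block, the compared groups alone, other transcript lengths and each library left out.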

Additional observations from a re-analysis of the deposited data

Results flagged for a closer look

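In EMCN+ LT-HSCs the library of mouse 1 stood apart from the other 3 in the make-up of the summed Runx level. Its Runx1 share was 66.7%, against 63.2 to 63.5% in the others, and the gap to the nearest library was 0.890 of the whole range. Its Runx2 share was 28.4%, against 32.4 to 33.2%, and the gap was 0.842 of the range. Both exceed Dixon's 95% critical value for 4 libraries. They are tied, since the shares of the 3 genes sum to a whole. Of 18 groups of 4 libraries examined 2 were picked out, and chance picks about 1 in 20. Runx2 itself was lowest in this library among the EMCN+ libraries, at 50.2 CPM. Its Runx3 share, 4.87%, was the highest of the 4 and stayed below that of every EMCN- library.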

How the results depend on the processing

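Each of the 3 comparisons was repeated under 22 other settings, and the calls of Runx3 and Runx2 stated above for EMCN+ LT-HSCs, and of Runx2 against GMPs, held under every one of them. Leaving out each library in turn, Runx3 lay between -1.53 and -1.41 for EMCN+ against EMCN- and between -1.81 and -1.71 for EMCN+ against GMP. The number of genes called for EMCN+ against EMCN- was 293, but 529 without a low-count filter, 451 with DESeq2, 908 with the replicate block in complete pairs, and 55 (without EMCN- replicate 1) to 338 with a library left out, with 105, 184, 194 and 191 without EMCN+ replicate 2, EMCN+ replicate 4, EMCN- replicate 2 and EMCN- replicate 4. Among values that were not called with TMM factors, Runx2 for EMCN+ against EMCN- ranged from -0.0046 to 0.16 with a library left out. Cbfb turned to 0.0247 for EMCN+ against EMCN- with total counts. For EMCN+ against GMP it turned to 0.0635 with upper-quartile factors and 0.76 with total counts, and ranged from -0.11 to 0.0215 with a library left out. For EMCN- against GMP it was 0.73 with total counts, -0.0098 and -0.011 with the replicate block in all libraries and in complete pairs, and -0.0384 to 0.10 with a library left out. The values of 0.76 and 0.73 with total counts were called.

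For EMCN- against GMP, Runx1 was called at 0.36 with upper-quartile factors (adjusted p = 0.0153, edgeR), 0.97 with total counts, and 0.29 and 0.37 with the replicate block in all libraries and in complete pairs. It ranged from 0.19 to 0.35 with a library left out. The replicate block changed no other call of the 4 genes. Runx3 in the same comparison was at 0.46 with total counts and from -0.33 to -0.24 with a library left out. Cdk4 for EMCN- against GMP turned to 0.16 with total counts. Total counts use no factor, so the median shift given above enters each of these values. The cause was not tested for the rest. With the longest transcripts the Runx1 share was 53.9% in EMCN- LT-HSCs and 53.4% in GMPs, the Runx2 share 26.1, 22.7 and 13.4% and the Runx3 share 9.26, 23.3 and 33.2% in EMCN+, EMCN- and GMP libraries. With the union of exons the Runx1 share was 54.5, 43.1 and 42.3%, the Runx2 share in EMCN- LT-HSCs 27.3% and the Runx3 share 12.5, 29.7 and 41.8%. Without length the Runx1 share in GMPs was 59.2%, the Runx2 share 28.9 and 26.5% in EMCN+ and EMCN- LT-HSCs and the Runx3 share 6.17, 16.4 and 24.4%. The ratio of summed Runx genes to Cbfb between the fractions was -0.0629 with the longest transcripts, -0.14 with the union of exons, and -0.0177 to 0.12 with a library left out. Of 2071 values for named list genes, 2023 kept their direction and side of the threshold, 33 lost the call, 14 gained one and 1 turned. With the compared groups alone, Gata1 (adjusted p = 0.0584, edgeR), Plek (0.0586) and Nkg7 (0.0657) missed the threshold between the fractions. Depth limits list genes near 1 count, and 3 EMCN- libraries limit each exact test.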
